A study of Mus musculus with 12 samples.

Results

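Squamous epithelia build a barrier from a set of proteins of which many are absent from simple epithelia such as bile duct. The 39 genes described here encode parts of that barrier in the mouse: 9 proteins of the cornified envelope, 9 desmosome proteins, 4 stefins, 4 S100 proteins, 6 transcription factors and 7 other proteins of squamous epithelium, most of them secreted or at the cell surface. They are 39 of the 47069 genes in the count table. The genes were chosen by function, with earlier results from the same libraries known, among them the change of Stfa3 in LGR5+ cells after treatment. The comparison of treated with untreated LGR5+ cells is therefore given as a description, with counts and fold changes and without P values.

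The cornified envelope is a layer of cross-linked protein beneath the membrane of the outermost epidermal cells. Transglutaminases form the cross-links between precursors such as involucrin, loricrin and the small proline-rich proteins, and periplakin and envoplakin anchor this layer to desmosomes and keratin filaments. Desmosomes hold neighboring cells together through the desmoglein and desmocollin cadherins, which plakoglobin, plakophilins and desmoplakin tie to keratins. Stefins are small cytosolic inhibitors of cysteine cathepsins, S100A8 and S100A9 form the calcium-binding complex calprotectin, and Klf4, the grainyhead-like factors, p63 and Ovol1 regulate epidermal stratification and differentiation. None of these proteins is a defining product of hepatocytes.

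RNA was sequenced from liver cancer organoid cells of C57BL/6 mice of the LGR5-DTRGFP+ genotype, in which the diphtheria toxin receptor and GFP are expressed from the Lgr5 locus, so that every library carried the same knock-in allele. According to the study's methods, tumors were induced by DEN and cells were sorted by FACS on GFP with exclusion of dead and CD45+ cells. The 4 groups of 3 libraries each were untreated LGR5-, untreated LGR5+, 5-FU-treated LGR5- and 5-FU-treated LGR5+ cells. 5-FU is a pyrimidine analog that blocks thymidylate synthase, and its dose and duration for these libraries are not given in the sources used here. The methods give ages and numbers of mice and of organoid strains for the study as a whole, but the sources used here do not say which of them gave these libraries, and nothing states that libraries with different numbers came from separate cultures, so that the P values below may measure technical spread.

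Counted reads ranged from 13750591 to 19323514 per library, so that 3 reads, the limit that a count of 0 allows, corresponded to 0.164 to 0.220 CPM (the reads of a gene relative to the scaled size of its library). The mitochondrial share of the reads was 1.47% to 3.08% in 10 libraries and stood apart in LGR5- replicate 3, at 6.93% untreated and 6.44% after 5-FU. Lgr5 itself did not separate the sorted populations: its level was 28.8 ± 6.62 CPM in untreated LGR5- and 25.7 ± 2.12 CPM in untreated LGR5+ libraries, and 25.1 ± 9.49 and 27.0 ± 0.195 CPM after 5-FU (mean ± SD, n = 3 for this and each group below), with edgeR adjusted P values of 1 and 0.842 for the 2 comparisons. LGR5+ and LGR5- are therefore used below as the labels of the libraries. The hepatocyte genes Alb (0.147 to 1.85 CPM) and Hnf4a (at most 0.117 CPM) were near the detection limit in all 12 libraries, whereas Sftpc, the surfactant gene of alveolar cells, reached 2616 to 17320 CPM and the bile duct and general epithelial keratin gene Krt19 373 to 4477 CPM, so that the tissue label is not matched by these hepatocyte markers. Of the other hepatocyte markers, Apoa1, Ttr, Serpina1a and Cps1 were at most at 0.647 CPM, whereas Afp, the fetal albumin-like protein, and Ass1, a urea cycle enzyme made in many tissues, were at 9.87 to 54.3 and 13.1 to 39 CPM. The sum of the 8 was 28.3 to 38.8 CPM in untreated and 56.2 to 94.5 CPM in treated libraries, and of the 3 tested Afp and Ass1 rose in LGR5+ and Afp in LGR5- cells. The study types its tumor organoids as cholangiocarcinoma-like by EpCAM and CK19, the product of Krt19, or as hepatocellular carcinoma-like by HNF4α and AFP. Which type gave these libraries is not given in the sources used here. The bulk libraries cannot tell apart a larger share of cells that express a gene and more RNA per cell.

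The 250 bases before the RefSeq transcription start are shown for 7 of the genes: the 5 barrier genes whose promoters hold the same 2 motifs and 2 stefin genes of 1 cluster whose promoters resemble each other. The sequences are from RefSeq on the GRCm38.p6 assembly, which held a promoter for 22 of the 39 genes. The gene positions given further on are from GENCODE, in which Stfa1 starts earlier, so that 197 of the 250 bases of its window lie inside the GENCODE gene; this holds for 14, 10 and 9 bases of the Sprr1a, Sprr1b and Krtdap windows and for none of the others. Capitals mark the AP-1 motif TGANTCA, which reads the same on both strands, and TATAAA on the strand of the gene; the 2 motifs do not overlap in these windows.
Sprr1a (chr3:92485882-92486131, minus strand): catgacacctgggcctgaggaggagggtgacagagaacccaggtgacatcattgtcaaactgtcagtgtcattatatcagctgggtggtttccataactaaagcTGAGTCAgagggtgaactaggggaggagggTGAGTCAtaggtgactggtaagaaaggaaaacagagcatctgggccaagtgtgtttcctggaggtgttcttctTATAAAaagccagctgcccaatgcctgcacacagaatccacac
Sprr1b (chr3:92438780-92439029, minus strand): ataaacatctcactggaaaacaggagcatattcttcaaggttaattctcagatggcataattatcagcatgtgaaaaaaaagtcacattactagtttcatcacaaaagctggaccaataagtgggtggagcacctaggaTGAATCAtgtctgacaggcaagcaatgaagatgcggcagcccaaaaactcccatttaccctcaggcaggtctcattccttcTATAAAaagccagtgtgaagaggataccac
Ivl (chr3:92573736-92573985, minus strand): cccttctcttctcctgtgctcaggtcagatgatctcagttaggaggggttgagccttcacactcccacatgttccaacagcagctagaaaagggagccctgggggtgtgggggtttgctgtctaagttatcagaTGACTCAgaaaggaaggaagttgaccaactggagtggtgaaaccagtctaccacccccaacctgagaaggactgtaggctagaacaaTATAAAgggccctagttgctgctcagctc
Lor (chr3:92083143-92083392, minus strand): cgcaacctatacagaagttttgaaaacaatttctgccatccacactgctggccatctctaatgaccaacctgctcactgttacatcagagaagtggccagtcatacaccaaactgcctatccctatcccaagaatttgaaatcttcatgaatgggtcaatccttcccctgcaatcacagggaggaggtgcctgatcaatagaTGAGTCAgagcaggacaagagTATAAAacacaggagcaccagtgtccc
Krtdap (chr7:30787655-30787904, plus strand): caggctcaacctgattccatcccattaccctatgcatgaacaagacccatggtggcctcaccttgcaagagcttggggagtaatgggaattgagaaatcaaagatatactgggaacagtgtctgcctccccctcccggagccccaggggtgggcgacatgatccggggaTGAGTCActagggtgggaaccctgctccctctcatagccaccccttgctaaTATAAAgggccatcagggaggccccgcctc
Stfa1 (chr16:36276898-36277147, plus strand): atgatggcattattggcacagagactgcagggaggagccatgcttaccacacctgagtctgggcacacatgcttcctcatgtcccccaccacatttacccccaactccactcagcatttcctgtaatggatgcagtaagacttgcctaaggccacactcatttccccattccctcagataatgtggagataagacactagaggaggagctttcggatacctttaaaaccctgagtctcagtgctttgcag
Stfa3 (chr16:36455393-36455642, minus strand): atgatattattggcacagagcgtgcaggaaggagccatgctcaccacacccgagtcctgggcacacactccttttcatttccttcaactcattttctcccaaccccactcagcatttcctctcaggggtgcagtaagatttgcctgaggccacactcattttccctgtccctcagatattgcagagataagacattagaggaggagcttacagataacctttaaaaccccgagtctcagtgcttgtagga
The AP-1 motif was present in 7 of the 22 promoters, those of Sprr1a, Sprr1b, Ivl, Lor, Sbsn, Krtdap and Dmkn (31.8%), and in 6.87% of the 27025 promoters of the same length in the table. TATAAA was also present in 7 of the 22 (31.8%), against 8.12% of all promoters. A grainyhead motif (AACCNGTT) was found only in front of S100a9 among the 22 (4.55%; 1.71% of all promoters), and the GC-rich KLF motif CCNCNCCC, searched on both strands, in 14 of the 22 (63.6%; 45.6% of all). The Stfa1 and Stfa3 windows, from genes on opposite strands, were identical at 213 of 250 bases (85.2%) in a global alignment and held neither capitalized motif. These matches describe letters in the windows and say nothing of whether a factor was bound. Of the genes with matches, Lor, which holds both motifs, and Sbsn, which holds the AP-1 motif, were not called in either population in the fit of all 12 libraries.

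Of the 39 genes, 36 passed the filter on low counts and were tested by edgeR's quasi-likelihood test across 16157 genes, in which a gene was called at a Benjamini-Hochberg adjusted P under 0.05. Tgm3, Dsc3 and Stfa2 did not pass. Of the 36, Sprr1b, Dsg3, Stfa1, Stfa3, S100a9 and Cnfn passed only through the treated libraries and so had to differ, which leaves counts over the tested genes, also by role, as descriptions. No P for treatment is given for them or for other genes said below to have passed in that way. With no filter, over 27776 genes with a read, these 6 kept their calls in both populations, except Cnfn in LGR5- cells (log2 fold change 4.24). In LGR5+ cells 27 of the 36 rose after 5-FU, none fell and 9 were not called, beside 16.0% of all genes called, 9.66% higher and 6.37% lower. Among LGR5- libraries 24 rose, 1 fell and 11 were not called, beside 15.4% of all genes called, 8.30% higher and 7.11% lower. These shares of all genes also stand beside the counts by role and by gene list below. Among the 30 genes that reached the filter in untreated libraries, 21 rose in LGR5+ cells, and 18 rose and 1 fell in LGR5- cells. The median log2 fold change of the tested members was 1.92 in LGR5+ and 1.51 in LGR5- cells, and that of all genes -0.016 and -0.05. The untreated libraries of the 2 comparisons are separate, but the populations were sorted from organoids of the same kind, so that the LGR5- result is not independent of the choice of genes.

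**Figure D1:**
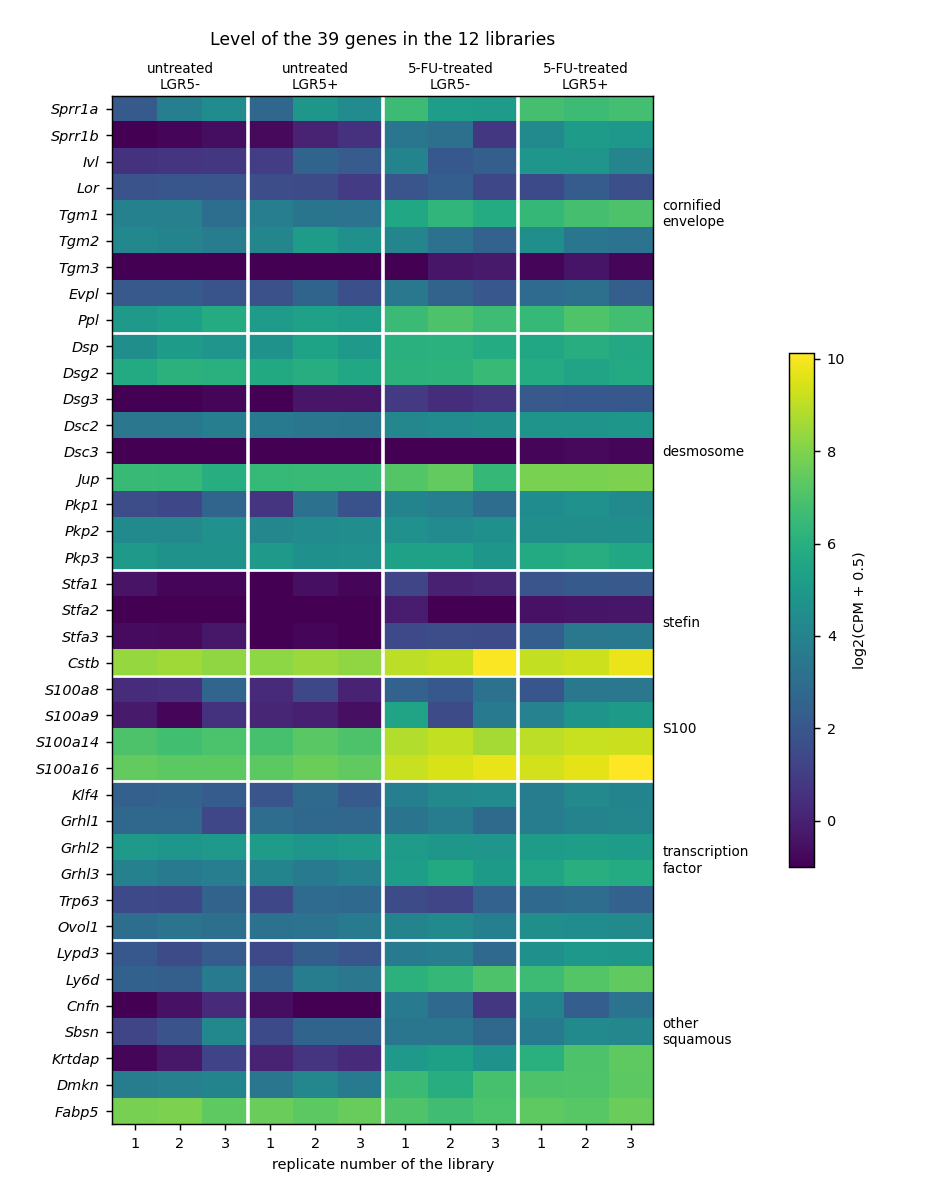
Level of the 39 genes (rows, in the order of their roles) in the 12 libraries (columns, 3 per group), as log2(CPM + 0.5). Tgm3, Dsc3 and Stfa2 were at 0 reads in all untreated libraries, and Cstb, S100a14, S100a16 and Fabp5 held the 4 highest values in each untreated library.

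The levels before treatment covered a wide range. Per kilobase of exon, the scale on which genes can be compared, untreated LGR5- cells held 558 RPKM of Cstb, 101 of S100a16, 69.9 of S100a14, 58.8 of Fabp5, 15.7 of Sprr1a and 12.4 of Jup. Among genes with any read in these libraries, Dsg3 stood at the other end with 0.00265 RPKM, a single read in 1 of the 3 libraries. The stefins thus ranged from the most abundant of the genes, Cstb, to Stfa2, which had no read in the untreated libraries. Among the 6 untreated libraries, LGR5+ replicate 2 was the highest for 14 of the 36 tested genes (38.9%), against 15.2% of all genes. That library also had the highest summed level of basal and stress keratins (109 CPM; the others held 40.8 to 99.1 CPM) and of leukocyte markers (54.3 CPM, the others 26.9 to 40.2 CPM), and the part of these in the levels was not tested.

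Of 8 cornified envelope genes tested, 5 rose in each population: the precursors Sprr1a, Sprr1b and Ivl, the cross-linking enzyme Tgm1 and periplakin. Sprr1a, a small proline-rich precursor, was at 3.87, 13.5 and 20.6 CPM in the 3 untreated LGR5- libraries and at 6.06, 29.3 and 20.4 CPM in the untreated LGR5+ libraries. After 5-FU it was at 99.5, 36.2 and 35.3 CPM in LGR5- and at 116, 97.4 and 110 CPM in LGR5+ cells. Treated and untreated libraries did not overlap in either population, although the untreated libraries of each differed among themselves by more than 4-fold. Its log2 fold change was 2.54 ± 0.66 (SE) in LGR5+ and 2.17 ± 0.66 in LGR5- cells (edgeR adjusted P = 0.0465). The call in LGR5- cells was lost when any 1 of its libraries other than untreated replicate 3 was left out (adjusted P = 0.0591 to 0.127), without both LGR5- libraries numbered 3 (0.073) and with the replicate number as a block (0.0993). The call in LGR5+ cells was lost without untreated replicate 3 or treated replicate 2 or 3 (log2 fold change 2.52 to 2.61) and with the block (2.61). With no filter the call was lost in both populations, and with library size only in LGR5- cells (0.0593). Sprr1b, its neighbor on chromosome 3, was almost silent before treatment: 0, 1 and 3 reads in LGR5- and 2, 9 and 17 reads in LGR5+ libraries. It reached 168, 137 and 17 reads in 5-FU-treated LGR5- and 343, 637 and 507 reads in 5-FU-treated LGR5+ libraries. Replicate 3 of the treated LGR5- cells, 1 of the 2 libraries rich in mitochondrial reads, held only as many Sprr1b reads as the highest untreated LGR5+ library. Its log2 fold change was 5.63 ± 0.73 in LGR5+ and 6.28 ± 0.95 in LGR5- cells.

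Involucrin (Ivl), the scaffold precursor of the envelope, was at 1.03, 1.10 and 1.22 CPM in untreated LGR5- and at 1.56, 5.46 and 4.06 CPM in untreated LGR5+ libraries. After treatment LGR5- cells held 15.5, 3.74 and 4.62 CPM and LGR5+ cells 27.8, 27.5 and 16.1 CPM. Each treated library lay above the untreated libraries of its own population, but 2 of the 3 treated LGR5- libraries lay within the untreated LGR5+ range. The log2 fold change of Ivl was 2.69 ± 0.52 in LGR5+ and 2.83 ± 0.56 in LGR5- cells (adjusted P = 0.0042). Tgm1, the membrane-bound epidermal transglutaminase, was more even: 14.4, 13.9 and 7.60 CPM in untreated LGR5- and 13.1, 9.58 and 8.95 CPM in untreated LGR5+ libraries, then 50.6, 80.4 and 56.5 CPM and 83.8, 114 and 130 CPM after 5-FU. The lowest treated library held more than 3-fold the highest untreated one, with a log2 fold change of 3.37 ± 0.29 in LGR5+ and 2.38 ± 0.28 in LGR5- cells (adjusted P = 8.44e-05). Periplakin (Ppl) was at 30.8, 38.5 and 56.7 CPM and at 34.0, 40.5 and 37.5 CPM in untreated LGR5- and LGR5+ libraries, and at 96.1, 130 and 100.5 CPM and 86.5, 131 and 107 CPM after treatment. Ppl reached a similar level in both treated populations, 109 ± 18.3 and 108 ± 22.5 CPM, with log2 fold changes of 1.37 ± 0.23 in LGR5- (adjusted P = 0.00138) and 1.54 ± 0.23 in LGR5+ cells.

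The rest of the cornified envelope group did not pass the test. Loricrin (Lor), the main envelope protein of terminally differentiated epidermis, stayed between 1.43 and 4.56 CPM across the 12 libraries, with log2 fold changes of 0.52 ± 0.36 and 0.04 ± 0.36 (adjusted P = 0.959 in LGR5- cells). Envoplakin (Evpl), the partner of periplakin, lay between 2.81 and 10.4 CPM with log2 fold changes of 0.80 ± 0.39 in LGR5+ and 0.83 ± 0.39 in LGR5- cells (adjusted P = 0.174). Tgm2, the tissue transglutaminase found in many cell types, had negative log2 fold changes, -0.82 ± 0.42 and -0.59 ± 0.42 (adjusted P = 0.388 in LGR5- cells), but was called lower in LGR5+ cells without treated replicate 1 (-1.39), which held 23.0 CPM against 9.84 and 8.94 CPM in the other 2. Tgm3, a transglutaminase of epidermis and hair follicle, had no read before treatment and 0, 5 and 5 reads in LGR5- and 1, 5 and 1 reads in LGR5+ libraries after it. For LGR5- cells this is at least 1.29-fold above the limit of 3 reads per library. Tgm2 overlaps other genes on the opposite strand, as do Tgm3, Dsp, Dsg2, Grhl2, Trp63 and Lypd3, and the strand setting of the counting is not given in the sources used here.

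**Figure D2:**
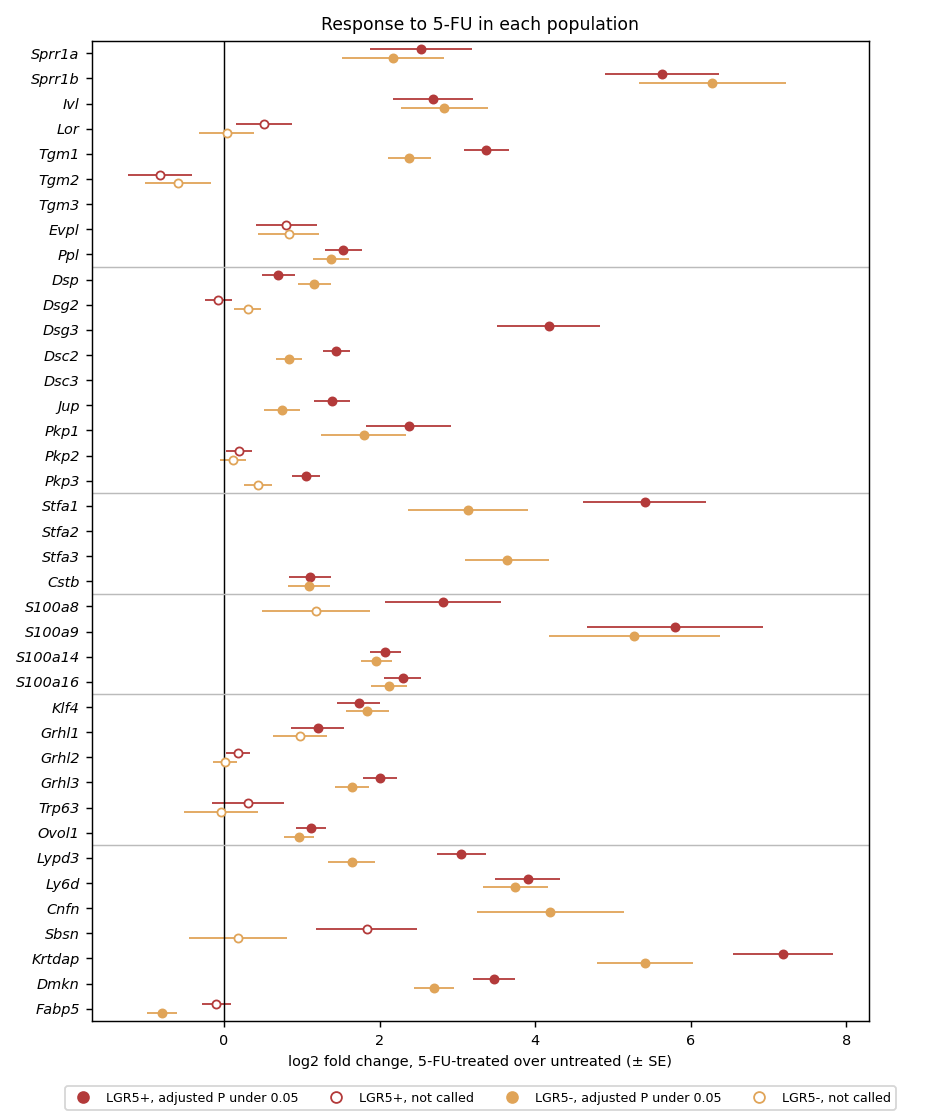
Log2 fold change of 5-FU-treated over untreated cells with its SE (horizontal axis) for each gene in LGR5+ (red) and LGR5- (orange) cells, with filled points for called genes. Tgm3, Dsc3 and Stfa2 were not tested, and no point is drawn for Stfa3 and Cnfn in LGR5+ or Dsg3 in LGR5- cells, where the untreated libraries held 1, 3 and 1 reads in all; Krtdap had the highest value drawn, 7.19 in LGR5+ cells.

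Of 8 desmosome genes tested, 6 rose in LGR5+ and 5 in LGR5- cells, and Dsg2 and Pkp2 were called in neither. Desmoglein 3 (Dsg3), a cadherin of the basal layers of stratified epithelium, had 0, 0 and 1 reads in untreated LGR5- and 0, 5 and 5 reads in untreated LGR5+ libraries. After 5-FU it had 23, 15 and 15 reads in LGR5- and 68, 66 and 64 reads in LGR5+ libraries, with no overlap of treated and untreated libraries. In LGR5- cells the ratio was 58.6 (95% interval 10.1 to 2358, from 53 against 1 reads, counting error only), and in LGR5+ cells the log2 fold change was 4.17 ± 0.66. Desmoglein 2 (Dsg2), the desmoglein of simple epithelium and heart muscle, lay between 44.7 and 92.6 CPM, with log2 fold changes of -0.07 ± 0.18 in LGR5+ and 0.30 ± 0.18 in LGR5- cells (adjusted P = 0.281).

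Desmocollin 2 (Dsc2), the most widely expressed desmocollin, was at 10.2, 10.5 and 12.9 CPM in untreated LGR5- and 11, 9.94 and 9.43 CPM in untreated LGR5+ libraries. It was at 17.4, 19.9 and 22.6 CPM and at 27.0, 26.4 and 29.3 CPM after treatment, so that the 2 treated groups did not overlap with each other either. Its log2 fold change was 1.44 ± 0.18 in LGR5+ and 0.84 ± 0.17 in LGR5- cells (adjusted P = 0.00498). Desmocollin 3 (Dsc3), the partner of Dsg3 in stratified epithelium, had 4 reads in the table, all in treated LGR5+ libraries, and was not tested.

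Plakoglobin (Jup), which binds the cadherin tails in desmosomes and adherens junctions, was at 90.0, 87.3 and 61.2 CPM in untreated LGR5- and 87.6, 93.4 and 93.5 CPM in untreated LGR5+ libraries. Treated LGR5- libraries spread over 141, 173 and 85.2 CPM and overlapped with the untreated ones, whereas treated LGR5+ libraries stood close together at 239, 238 and 243 CPM. Jup had a log2 fold change of 1.39 ± 0.23 in LGR5+ and 0.74 ± 0.23 in LGR5- cells (adjusted P = 0.0426). Plakophilin 1 (Pkp1), the plakophilin of the upper layers of stratified epithelium, was at 2.60, 2.19 and 5.71 CPM and at 1.10, 8.29 and 2.98 CPM before treatment and at 15.8, 13.2 and 7.47 CPM and 21, 24 and 19 CPM after it. It rose by a log2 fold change of 2.37 ± 0.55 in LGR5+ and 1.80 ± 0.55 in LGR5- cells (adjusted P = 0.0402), and the call in LGR5- cells was lost with the replicate number as a block (0.0689), with library size only (0.0551) and with no filter (0.153). With no filter the call in LGR5+ cells was lost as well.

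Plakophilin 3 (Pkp3), present in desmosomes of most epithelia, was at 30.8, 25.0 and 25.9 CPM and at 31.0, 23.6 and 24.3 CPM in untreated LGR5- and LGR5+ libraries. After 5-FU it was at 41.0, 40.4 and 29.2 CPM in LGR5- cells, overlapping with the untreated libraries, and at 54.6, 59.6 and 49.5 CPM in LGR5+ cells. It was called in LGR5+ cells, with a log2 fold change of 1.05 ± 0.18, but not in LGR5- cells, where it was 0.44 ± 0.18 (adjusted P = 0.125; 0.0344 without treated replicate 3). Plakophilin 2 (Pkp2), the plakophilin of heart and simple epithelium, lay between 17.3 and 24.4 CPM in all libraries (adjusted P = 0.704 in LGR5- cells). Desmoplakin (Dsp), which ties the plaque to keratin filaments, was at 22.9, 35.5 and 27.5 CPM and at 25.0, 43.6 and 32.0 CPM before and at 66.0, 68.4 and 57.8 CPM and 49.6, 61.0 and 52.7 CPM after treatment. Dsp rose by a log2 fold change of 1.16 ± 0.22 in LGR5- (adjusted P = 0.00259) and 0.70 ± 0.21 in LGR5+ cells, and the difference between the 2 responses was not called. Leaving out 1 library ended the call of Jup in LGR5- cells for each library but treated replicate 3 (adjusted P 0.07 to 0.194), that of Pkp1 in LGR5- cells for replicates 1 and 2 of both treatments (0.0913 to 0.157), and that of Dsp in LGR5+ cells for untreated replicates 1 and 3 and treated replicates 2 and 3 (log2 fold change 0.53 to 0.72). The call of Jup was also lost in a fit of only the libraries compared (adjusted P = 0.161), and that of Dsp in LGR5+ cells with library size only (log2 fold change 0.62).

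All 3 stefins tested rose in both populations, those of the cluster on chromosome 16, which is expanded in the mouse, from near 0. Of these 3, Stfa1 and Stfa3 passed the filter only through the treated libraries. Of all genes, 9.66% were called higher in LGR5+ and 8.30% in LGR5- cells. Stfa1 had 4, 1 and 1 reads in untreated LGR5- and 0, 3 and 1 reads in untreated LGR5+ libraries, then 34, 9 and 9 reads in LGR5- and 59, 71 and 66 reads in LGR5+ libraries after 5-FU. Stfa1 rose by a log2 fold change of 5.41 ± 0.79 in LGR5+ and 3.14 ± 0.77 in LGR5- cells. Stfa3 had 2, 2 and 6 reads in untreated LGR5- and 0, 1 and 0 reads in untreated LGR5+ libraries, and 38, 44 and 34 reads and 79, 190 and 186 reads after treatment. The libraries labelled LGR5+ thus held fewer Stfa3 reads before treatment and more after it. In LGR5- cells the log2 fold change was 3.64 ± 0.54. In LGR5+ cells, where a single read was counted before treatment, the ratio was 432 with a 95% interval of 77.1 to 17080 from counting error alone. Stfa2 had no read before treatment and 7, 0 and 0 reads in LGR5- and 4, 5 and 5 reads in LGR5+ libraries after it, at least 1.48-fold above the limit of 3 reads per library in LGR5+ cells.

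The promoters of these 3 stefin genes were alike, with 82.0% identity of Stfa2 to both others and 85.2% between Stfa1 and Stfa3 shown above, and close paralogs can divide or share reads in counting, so that the split among Stfa1, Stfa2 and Stfa3 is uncertain. The interval from Stfa1 to Stfa3 (GRCm38, chr16:36276951-36455392) holds 5 protein-coding genes in the GENCODE M21 annotation, and the other 2, the stefin-like BC100530 and BC117090, rose in both populations, although the call of BC117090 in LGR5- cells was lost without untreated replicate 1 or 2 or treated replicate 1 (log2 fold change 3.38 to 3.91). BC100530 was at 0.121 to 2.38 CPM in untreated and 13.3 to 49.9 CPM in treated libraries, with log2 fold changes of 5.66 ± 0.66 in LGR5+ and 4.04 ± 0.62 in LGR5- cells (adjusted P = 0.000887). Cystatin B (Cstb), the stefin present in most tissues and located elsewhere, was at 327, 369 and 313 CPM in untreated LGR5- and 301, 348 and 312 CPM in untreated LGR5+ libraries. It was at 513, 573 and 1060 CPM and at 552, 625 and 883 CPM after 5-FU, with the highest value of each treated population in replicate 3. Its log2 fold changes were nearly equal, 1.10 ± 0.27 in LGR5+ and 1.09 ± 0.27 in LGR5- cells (adjusted P = 0.0136). The call of Stfa1 in LGR5- cells was lost without untreated replicate 2 or treated replicate 1 (log2 fold change 2.81 and 2.29), and that of Cstb without untreated LGR5- replicate 1 (adjusted P = 0.0515), without both LGR5- libraries numbered 3 (0.0537), in a fit of only the libraries compared (0.0624) and, in LGR5+ cells, without untreated or treated replicate 3 (log2 fold change 1.09 and 0.88).

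The enzymes that stefins inhibit were examined from a list of cysteine cathepsins. Of 9 tested, 6 rose in LGR5+ and 2 in LGR5- cells and none fell, beside the 9.66% and 8.30% of all genes called higher. Ctsh, an aminopeptidase of lysosomes that also processes surfactant protein, had log2 fold changes of 1.94 ± 0.30 in LGR5+ and 1.31 ± 0.30 in LGR5- cells (adjusted P = 0.00831). Ctsc, which activates granule proteases of leukocytes, had 1.5 ± 0.30 and 0.77 ± 0.30 (adjusted P = 0.101 in LGR5- cells). Of 5 other stefins and cystatins tested, 3 rose in both populations: BC100530, BC117090 and Csta1, whose log2 fold changes were 4.75 ± 0.57 in LGR5+ and 2.85 ± 0.56 in LGR5- cells. Csta1 and BC117090 passed the filter only through the treated libraries.

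**Figure D3:**
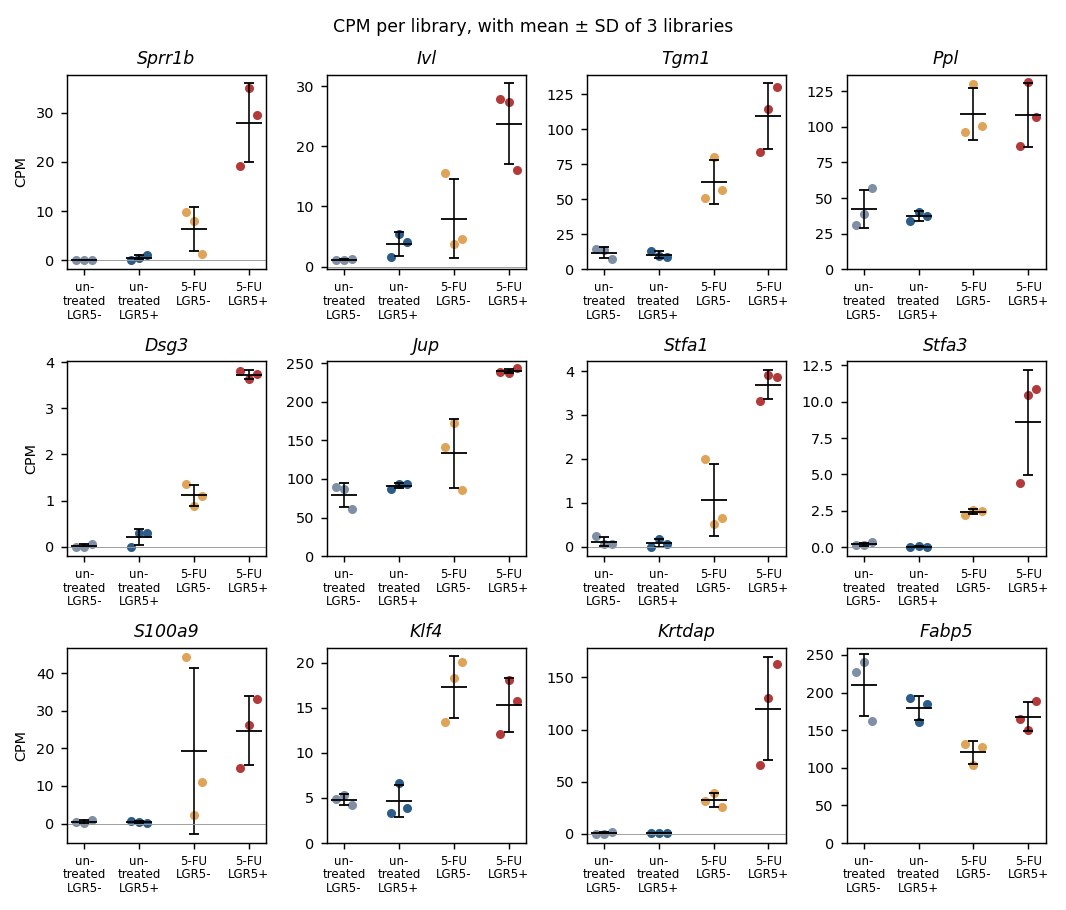
CPM of 12 of the genes in each library (points), with the mean and SD of the 3 libraries of a group (black). The treated LGR5+ libraries of Dsg3, Stfa1 and Jup sit close together above all others, S100a9 spreads from 2.40 to 44.3 CPM among treated LGR5- libraries, and Fabp5 is lowest in treated LGR5- cells.

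Of the 4 S100 genes, all rose in LGR5+ and 3 in LGR5- cells. S100a9 and S100a8, the calprotectin pair, started low. S100a9 had 6, 1 and 19 reads in untreated LGR5- and 11, 8 and 3 reads in untreated LGR5+ libraries. After 5-FU it had 753, 41 and 152 reads in LGR5- and 265, 477 and 565 reads in LGR5+ libraries, and all treated libraries lay above all untreated ones. The treated LGR5- libraries differed among themselves more than 10-fold, with replicate 1 the highest of all 12. The log2 fold change of S100a9 was 5.80 ± 1.13 in LGR5+ and 5.27 ± 1.10 in LGR5- cells, and the call in LGR5- cells was lost without untreated replicate 1 (5.11). S100a8 had 14, 17 and 104 reads in untreated LGR5- and 13, 35 and 9 reads in untreated LGR5+ libraries, and 89, 63 and 113 reads and 62, 193 and 173 reads after treatment. Untreated LGR5- replicate 3 lay within the range of the treated LGR5- libraries, and the gene was called only in LGR5+ cells, with log2 fold changes of 2.81 ± 0.75 there and 1.18 ± 0.69 in LGR5- cells (adjusted P = 0.292). Without untreated replicate 3 it was called there too (2.67, adjusted P = 0.00993), as without both LGR5- libraries numbered 3 (2.31, 0.0336). In LGR5+ cells the call of S100a8 was lost without untreated replicate 1 or 3 or treated replicate 2 or 3 (log2 fold change 2.48 to 2.62) or with no filter (2.79).

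Calprotectin is also a major product of neutrophils, and so neutrophil markers were read beside it. Of the 12 markers, 5 had no read in each untreated group and 3 none in each treated group, and Csf3r had none in any library. Among the 5 tested, Ltf and Ly6g rose in LGR5+ and Ltf in LGR5- cells, and none fell. Their summed level was 15.4 to 38.5 CPM in untreated, 65.7 to 178 CPM in treated LGR5- and 231 to 318 CPM in treated LGR5+ libraries, most of it from Ltf, the gene of lactoferrin, which glandular and airway epithelia also secrete. Ltf rose by a log2 fold change of 3.70 ± 0.37 in LGR5+ and 3.16 ± 0.36 in LGR5- cells (adjusted P = 7.96e-05). Ly6g, a surface protein of neutrophils, had 8, 8 and 8 reads in untreated LGR5- and 8, 3 and 2 reads in untreated LGR5+ libraries, and 13, 27 and 14 reads and 16, 21 and 15 reads after treatment, without overlap in either population. It passed the filter only through the treated libraries, and its log2 fold change was 1.90 ± 0.56 in LGR5+ cells, a call lost with no filter and without any 1 of that comparison's libraries other than untreated replicate 1, and 1.29 ± 0.52 in LGR5- cells, where it was not called. Camp and Ngp, which encode proteins of neutrophil granules, had no more than 1 read in any library. Leukocyte and macrophage markers summed to 26.9 to 54.3 CPM in untreated and 29.7 to 65.5 CPM in treated libraries, and Ptprc, which encodes the CD45 used to exclude leukocytes in the sort, reached at most 2.02 CPM. The part of neutrophil RNA in the levels of S100a8 and S100a9 was not tested.

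S100a14 and S100a16, epithelial members of the family, were abundant in every library. S100a14 was at 129, 108 and 125 CPM and at 118, 155 and 129 CPM in untreated LGR5- and LGR5+ libraries, and at 465, 553 and 389 CPM and 520, 579 and 594 CPM after treatment. S100a16 was at 174, 157 and 160 CPM and at 162, 196 and 168 CPM before, and at 578, 710 and 855 CPM and 663, 802 and 1116 CPM after it. Both rose 3.89-fold to 4.91-fold in each population, with log2 fold changes of 2.08 ± 0.20 and 1.96 ± 0.20 for S100a14 (adjusted P = 2.82e-05 in LGR5- cells) and 2.30 ± 0.23 and 2.13 ± 0.23 for S100a16 (4.98e-05). Of 9 other S100 genes tested, 7 rose in LGR5+ and 8 in LGR5- cells, beside 9.66% and 8.30% of all genes called higher. S100a2 did not reach the filter in untreated libraries, and of the 8 that did, 7 rose in each population. S100a6, a gene of growing and differentiating epithelium, had log2 fold changes of 2.70 ± 0.41 and 2.47 ± 0.41 (adjusted P = 0.00111 in LGR5- cells).

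Of the 6 transcription factors, 4 rose in LGR5+ and 3 in LGR5- cells. Klf4, needed for the epidermal barrier, was at 4.84, 5.37 and 4.22 CPM in untreated LGR5- and 3.29, 6.63 and 3.94 CPM in untreated LGR5+ libraries, then at 13.5, 18.3 and 20.1 CPM and 12.1, 18.1 and 15.8 CPM. All treated libraries lay above all untreated ones, with log2 fold changes of 1.73 ± 0.27 in LGR5+ and 1.84 ± 0.27 in LGR5- cells (adjusted P = 0.00049). Grhl3, the grainyhead-like factor of barrier formation and wound repair, was at 14.4, 11.8 and 13.1 CPM and at 15.7, 11.2 and 14.3 CPM before and at 35.8, 54.4 and 32.6 CPM and 45.3, 63.2 and 56.6 CPM after 5-FU. Its log2 fold change was 2.0 ± 0.22 in LGR5+ and 1.65 ± 0.22 in LGR5- cells (adjusted P = 0.000227). Grhl1, which controls desmosomal cadherin genes in the epidermis, was at 6.36, 5.97 and 2.11 CPM and at 7.38, 6.02 and 5.85 CPM before and at 9.11, 12.6 and 6.60 CPM and 12.5, 15.1 and 16.8 CPM after it. Grhl1 was called in LGR5+ cells (log2 fold change 1.20 ± 0.34), a call lost without untreated replicate 2 or 3 or treated replicate 2 or 3 (1.11 to 1.19), and not in LGR5- cells (0.97 ± 0.34, adjusted P = 0.0708), where it was called under 5 alternatives: no filter, DESeq2, the replicate block, and without treated replicate 3 or both libraries numbered 3 (adjusted P = 0.0301 to 0.0453).

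Grhl2, the family member of simple and lung epithelium, lay between 27.4 and 37.5 CPM (log2 fold change 0.18 ± 0.15 in LGR5+ and 0.01 ± 0.15 in LGR5- cells, adjusted P = 0.982). Trp63, which encodes p63, the factor of basal cells, lay between 1.99 and 7.26 CPM and was not called, with log2 fold changes of 0.31 ± 0.46 and -0.04 ± 0.48 (adjusted P = 0.97 in LGR5- cells). Ovol1, a factor that promotes the exit of keratinocytes from the cell cycle, was at 7.57, 9.15 and 8.21 CPM and at 8.65, 8.84 and 11.4 CPM before and at 15.7, 19.3 and 13.6 CPM and 22.9, 20.7 and 19.2 CPM after treatment. Ovol1 rose by a log2 fold change of 1.12 ± 0.19 in LGR5+ and 0.96 ± 0.20 in LGR5- cells (adjusted P = 0.00432). Of 16 other squamous regulators tested, 5 rose and 1 fell in LGR5+ and 4 rose and 1 fell in LGR5- cells; of all genes, 9.66% rose and 6.37% fell in LGR5+ and 8.30% and 7.11% in LGR5- cells. Zfp750, a target of p63 in terminal differentiation, had log2 fold changes of 2.24 ± 0.23 and 1.94 ± 0.23 (adjusted P = 0.000106 in LGR5- cells), Notch1, a receptor that drives keratinocyte differentiation, 2.05 ± 0.24 and 1.83 ± 0.24 (0.000177), and Elf5, an epithelial factor of gland and lung, -1.23 ± 0.25 and -1.19 ± 0.25 (0.00557).

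Of the 7 other genes of squamous epithelium, 5 rose in each population and 1 fell in LGR5- cells. Krtdap, which encodes a secreted peptide of differentiating keratinocytes, had 1, 6 and 33 reads in untreated LGR5- and 10, 18 and 13 reads in untreated LGR5+ libraries, then 542, 667 and 350 reads in LGR5- and 1179, 2376 and 2795 reads in LGR5+ libraries. The lowest treated library exceeded the highest untreated one more than 10-fold. The log2 fold change of Krtdap was 7.19 ± 0.65 in LGR5+ and 5.41 ± 0.62 in LGR5- cells (adjusted P = 0.000117). Dermokine (Dmkn), secreted by the granular layer, was at 12.7, 14.1 and 15.6 CPM and at 9.86, 17.2 and 11.4 CPM before and at 95.5, 61.2 and 118 CPM and 130, 135 and 162 CPM after 5-FU (log2 fold change 3.47 ± 0.27 in LGR5+ and 2.70 ± 0.26 in LGR5- cells, adjusted P = 2.08e-05). Suprabasin (Sbsn), a secreted protein of the suprabasal layers, was not called: it lay between 2.0 and 19.5 CPM, with 17.6 CPM in untreated LGR5- replicate 3 and 2.0 and 3.12 CPM in the other 2 libraries of that group. Its log2 fold change was 1.83 ± 0.65 in LGR5+ and 0.18 ± 0.63 in LGR5- cells (adjusted P = 0.891). Without untreated LGR5- replicate 3 it was called higher in LGR5- cells (1.74, adjusted P = 0.00802), as without both LGR5- libraries numbered 3 (1.94, 0.00645), and in LGR5+ cells it was called in the latter fit (1.83) and in the fit of only the libraries compared. These 3 genes, Sbsn, Dmkn and Krtdap, are neighbors (GRCm38, chr7:30751471-30791097), with no other protein-coding gene between them in the annotation.

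Ly6d, a surface protein of squamous and basal epithelium, was at 5.02, 4.71 and 11.5 CPM and at 4.96, 12.3 and 10.3 CPM before and at 69.4, 85.5 and 131 CPM and 97.7, 143 and 172 CPM after treatment. Its log2 fold change was 3.91 ± 0.42 in LGR5+ and 3.74 ± 0.42 in LGR5- cells (adjusted P = 7.7e-05). Lypd3, a surface protein of suprabasal and migrating keratinocytes, was at 3.63, 2.41 and 4.10 CPM and at 2.25, 4.36 and 3.34 CPM before and at 12, 13 and 6.52 CPM and 23.7, 29.9 and 28.9 CPM after it. The 3 treated LGR5+ libraries lay well above the 3 treated LGR5- libraries, with log2 fold changes of 3.05 ± 0.31 and 1.64 ± 0.30 (adjusted P = 0.00249 in LGR5- cells). Cornifelin (Cnfn), a component of the cornified envelope, had 0, 4 and 14 reads in untreated LGR5- and 3, 0 and 0 reads in untreated LGR5+ libraries, and 189, 110 and 17 reads and 282, 81 and 151 reads after treatment. In LGR5- cells its log2 fold change was 4.19 ± 0.95, a call also lost without untreated replicate 2 (3.96), and in LGR5+ cells the ratio of 514 to 3 reads, scaled for depth, was 163 (95% interval 55.3 to 791, counting error only).

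Fabp5, the epidermal fatty acid-binding protein, was the only one of the 39 genes called lower in the fit of all 12 libraries, and only in LGR5- cells. It was at 227, 240 and 162 CPM in untreated and 132, 103 and 127 CPM in treated LGR5- libraries, without overlap. In LGR5+ libraries it was at 193, 161 and 185 CPM before and 165, 150 and 189 CPM after 5-FU, where the groups overlapped. The log2 fold change was -0.80 ± 0.19 in LGR5- (adjusted P = 0.0119) and -0.10 ± 0.19 in LGR5+ cells, and the call was lost without untreated replicate 1 or 2 or treated replicate 2 (adjusted P 0.0528 to 0.0581) and in a fit of only the libraries compared (0.079).

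Other genes of the same structures, taken from lists of general knowledge, were counted in the same way. Of 27 other cornified envelope and barrier genes tested, 12 rose in LGR5+ and 10 in LGR5- cells and none fell, beside 9.66% and 8.30% of all genes called higher. Of the 15 among them that reached the filter in untreated libraries, 9 and 7 rose. The small proline-rich genes Sprr2a3 and Sprr2a1 were at 4446 to 6644 and 317 to 573 CPM in untreated libraries and were not called. Sprr2a3 had log2 fold changes of 0.49 ± 0.25 in LGR5+ and 0.71 ± 0.25 in LGR5- cells. Sprr2e and Sprr2f had negative values in LGR5+ cells (-1.65 ± 1.78 and -0.805 ± 1.65) and were not called. Abca12, a lipid transporter of epidermal lamellar bodies, had log2 fold changes of 3.91 ± 0.40 and 3.72 ± 0.39 but passed the filter only through the treated libraries, and Sfn, the 14-3-3 sigma protein of keratinocytes and a target of p53, 2.86 ± 0.26 and 2.08 ± 0.25 (adjusted P = 0.000117 in LGR5- cells). Among 11 other desmosome and hemidesmosome genes tested, 8 rose in LGR5+ and 7 in LGR5- cells. Perp, a desmosomal membrane protein that is also a target of p53 and p63, went from 49.6 to 77.0 CPM across the untreated libraries to 312 to 482 CPM in treated LGR5- and 556 to 871 CPM in treated LGR5+ libraries, with log2 fold changes of 3.39 ± 0.24 and 2.80 ± 0.24 (adjusted P = 7.75e-06 in LGR5- cells). Lamb3, a chain of the laminin of hemidesmosomes, had a log2 fold change of 1.76 ± 0.21 in LGR5+ cells and 1.06 ± 0.20 in LGR5- cells (adjusted P = 0.00311).

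Keratins of basal and stressed squamous epithelium moved with the barrier genes: 9 of 9 tested rose in both populations, among them all 6 that reached the filter in untreated libraries. Their summed level was 40.8 to 109 CPM in untreated, 282 to 748 CPM in treated LGR5- and 985 to 1956 CPM in treated LGR5+ libraries. Krt6a, a keratin of wounded epidermis, had log2 fold changes of 6.07 ± 0.53 in LGR5+ and 5.98 ± 0.58 in LGR5- cells (adjusted P = 2.95e-05), and Krt17, a keratin of hair follicles and wounds, 4.66 ± 0.44 and 3.54 ± 0.42 (0.000114). Lung epithelium markers, mostly Sftpc, summed to 3581 to 17560 CPM in untreated and 3174 to 6625 CPM in treated libraries; Sftpc itself was not called, and of the 10 markers 4 rose and none fell in each population. Among untreated libraries, LGR5- replicate 3 and LGR5+ replicates 2 and 3 were low (3581, 5976 and 5033 CPM) and the other 3 high (15880 to 17560 CPM). Cholangiocyte markers summed to 2386 to 3109 CPM in untreated and 3422 to 11880 CPM in treated libraries, and 2 of 6 tested rose in each population, Krt19 and Krt7. General epithelium markers went from 2707 to 3876 CPM to 3659 to 11140 CPM, with 3 of 4 higher in LGR5+ and 2 in LGR5- cells. The part of these shifts in the results for the barrier genes was not tested.

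**Figure D4:**
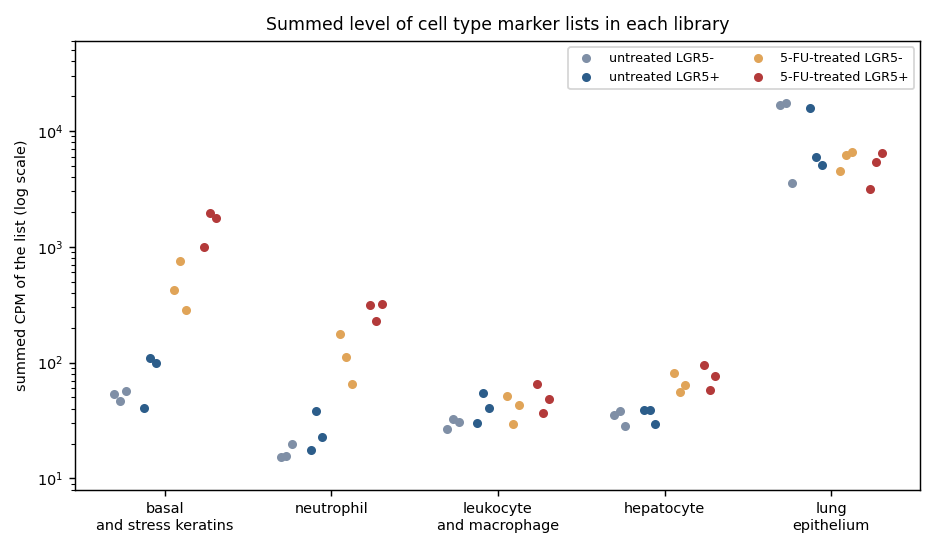
Summed CPM (log scale) of 5 marker lists in each library (points, colored by group). The keratin sum rose from at most 109 CPM in untreated to at least 282 CPM in treated libraries, while leukocyte and macrophage markers lay between 26.9 and 65.5 CPM in all.

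Several of the genes lie in clusters. The stretch from S100a14 to Ivl (GRCm38, chr3:90526856-92573735), in the region of the epidermal differentiation complex, holds 8 of the 9 members on chromosome 3, all but Fabp5. There 17 other protein-coding genes were tested, of which 7 rose in LGR5+ and 6 in LGR5- cells and none fell. Of all genes, 9.66% and 8.30% were called higher. Other S100 genes counted above, such as S100a6, are among the 17. At least S100a2, Sprr2d, Sprr2e, Sprr2f and Sprr2k of the 17 did not reach the filter in untreated libraries, and S100a2 is among the 6. In the desmosomal cadherin cluster (chr18:19960930-20604521), Dsg3 and Dsc2 rose in both populations, while Dsg2 and 1 other tested gene, Dsg1a, were not called.

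Whether the populations differed before treatment was asked by comparing untreated LGR5+ with untreated LGR5- libraries. None of the 36 tested genes was called, nor was any other gene (0% of 16157), and 4 members and 1.32% of all genes (214) had an unadjusted P under 0.05. DESeq2 called no member either. Higher in LGR5+ cells by this measure were Ivl (log2 difference 1.72 ± 0.57), Dsg3 (2.98 ± 1.11) and Sprr1b (2.77 ± 1.21), and lower was Stfa3 (-2.85 ± 1.01), each with an adjusted P of 1. Dsg3, Sprr1b and Stfa3 rest on 1 to 28 reads per group at this stage. The median log2 difference of the members was 0.010 and that of all genes -0.022.

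The treated populations were compared in the same way. The genes were chosen with their level in treated LGR5+ libraries known, and these libraries are an arm of this comparison and of the difference of responses, so that the counts, medians and P values of both are descriptions and not independent of the choice. In the fit of all 12 libraries no member and no other gene was called (0%), whereas 14 of the 36 members and 13.0% of all genes (2095) had an unadjusted P under 0.05, and DESeq2 called 3 members beside 0.508% of all genes (82, of which 61 higher in LGR5+). The 3 LGR5+ libraries lay above all 3 LGR5- libraries for 16 of the 36 (44.4%), against 14.2% of all genes, and below them for Dsg2. Among the largest differences were those of Sprr1b (log2 difference 2.12 ± 0.58, adjusted P = 0.342), Krtdap (1.90 ± 0.47, 0.324), Stfa3 (1.81 ± 0.42, 0.313), Stfa1 (1.78 ± 0.59, 0.344), Dsg3 (1.74 ± 0.55, 0.344), Ivl (1.57 ± 0.49, 0.344) and Lypd3 (1.38 ± 0.29, 0.286). The smallest adjusted P among the members was that of Lypd3. Related lists did not all lie on the same side: over the genes tested, none of which was called, the median log2 difference was -0.025 for 27 other cornified envelope and barrier genes, -0.448 for 9 other S100 genes, 0.16 for 11 other desmosome and hemidesmosome genes, 0.338 for 16 other regulators, 1.32 for 5 other stefins and cystatins and 1.93 for the 9 keratins. Treated LGR5- replicate 3, with 6.44% of mitochondrial reads, was the highest of the 6 treated libraries for 29.4% of all genes and for 3 of the 36 members, and held the lowest sums of keratin (282 CPM), cholangiocyte (3422 CPM) and general epithelium markers (3659 CPM) among them. Each of these 3 sums was higher in all treated LGR5+ than in all treated LGR5- libraries. The part of this library and of these sums in the differences was not tested.

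Treated libraries with the same replicate number deviated together from their group means, with correlations of 0.646, 0.262 and 0.359 across genes. Those with different numbers had correlations of -0.476 to 0.118. A fit of the 6 treated libraries with the replicate number as a block was therefore added after the data were seen. It called 9 of 36 members and 451 of 15196 genes (2.97%; 1.41% higher and 1.56% lower in LGR5+). Higher in LGR5+ were Krtdap (log2 difference 1.75 ± 0.24, adjusted P = 0.0154), Lypd3 (1.34 ± 0.21, 0.0183), Stfa3 (1.66 ± 0.27, 0.0233), Ivl (1.70 ± 0.32, 0.0344), Dsg3 (1.68 ± 0.32, 0.0344), Tgm1 (0.74 ± 0.15, 0.0371), Jup (0.84 ± 0.19, 0.0467) and Sprr1a (1.02 ± 0.24, 0.0496). Dsg2, the desmoglein of simple epithelium, was lower (-0.67 ± 0.15, 0.0422). All 8 were higher in LGR5+ in 3 of 3 pairs, and Dsg2 was lower in 3 of 3. Stfa1 was also higher in 3 of 3 pairs but missed the threshold (1.83 ± 0.44, 0.0508), as did Sprr1b (2.19 ± 0.65, 0.123). The pair numbered 3 gave the largest log2 ratio for Krtdap (2.67), Lypd3 (2.15), Stfa3 (2.12), Sprr1a (1.65), Jup (1.51) and Tgm1 (1.20). It also gave the most negative log2 ratio for Dsg2 (-0.76). Without this pair the log2 differences of Krtdap, Lypd3, Stfa3, Jup and Tgm1 were 1.37, 1.05, 1.51, 0.57 and 0.58. Ivl and Sprr1a then lost their call. Without the pair numbered 1, Tgm1, Jup and Dsg2 lost theirs. These fits of 2 pairs, also added after the data were seen, leave a single residual degree of freedom. In the block fit of all 12 libraries none of the members was called in this comparison.

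**Figure D5:**
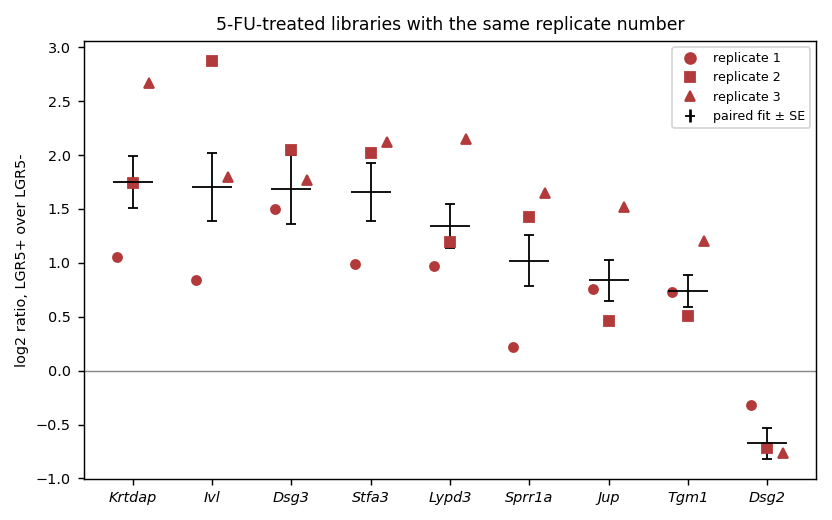
Log2 ratio of 5-FU-treated LGR5+ over LGR5- libraries for the 9 genes called in the paired fit (horizontal axis), for each replicate number (symbols) and as fitted with its SE (black). Dsg2 is below 0 in all 3 pairs, and the other genes are above 0 in all 3, from 0.216 for Sprr1a in replicate 1 to 2.88 for Ivl in replicate 2.

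Whether the response to 5-FU itself differed between the populations was tested as the difference of the 2 log2 fold changes. No member and no gene was called (0%), and 7 of the 36 members and 1.57% of all genes (254) had an unadjusted P under 0.05. The number of members called by DESeq2 was also 0. These 7 were Lypd3 (difference 1.41 ± 0.42), Tgm1 (0.99 ± 0.38), Dmkn (0.77 ± 0.35), Fabp5 (0.70 ± 0.27), Pkp3 (0.62 ± 0.26), Dsc2 (0.61 ± 0.24) and Stfa3 (4.67 ± 1.07, which depends on the single read of untreated LGR5+ cells), all with the larger or less negative value in LGR5+ and an adjusted P of 1. The median difference was 0.351 over the tested members and 0.043 over all genes, beside -0.436 for the other cornified envelope and barrier genes and -0.119 for the other S100 genes. Pkp3, S100a8 and Grhl1, called in LGR5+ only, and Fabp5, called in LGR5- only, are therefore not shown to differ in response between the populations.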

How the data were processed

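Whole-number read counts per Ensembl gene were deposited for 12 libraries of sorted organoid cells, 3 in each of 4 groups named by the sample titles; no column was left unmapped. Per the labels, RNA was amplified with a SMART-Seq kit, and the authors deposited the counts without normalization. The submitters' processing notes name the mm8 build and HISAT2, HISAT, TopHat2 and HTSeq, with no roles or versions; strand and annotation are not given in the sources used here. Of 47069 identifiers, 46574 matched a symbol in GENCODE M21 (GRCm38), and positions describe that annotation.

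The genes described and all gene lists were chosen with earlier results of these data known. Counts were filtered by filterByExpr (16157 genes kept), scaled by TMM and fitted on 4 group means with the robust quasi-likelihood test of edgeR 4.0.16 (R 4.3.3); the common dispersion was 0.0708. The biological coefficient of variation was 26.6%. P values were adjusted by the Benjamini-Hochberg method over all genes tested, and genes were called under 0.05. An SE was obtained from each log2 fold change and its F statistic (absolute value over the root of F). CPM uses TMM-scaled library sizes and RPKM adds exon length; both were computed here. Intervals and the floor of 3 reads cover counting error only, since the reads carry no molecular identifiers. No 2 libraries of a group were copies (chi-square per degree of freedom 15.1 to 124). The scripts were tested on simulated data. Values per library were given for the genes called in a comparison and ranges for the others. Of each list, at most 3 genes with the smallest P in LGR5+ cells were named. The hepatocyte markers, Sftpc, Krt19, Krt7, Csf3r, Camp, Ngp, Ptprc, S100a2 and the Sprr2 genes were chosen after their values were seen.

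Same-numbered libraries were paired where every correlation of their deviations was over 0.1, which held for the treated populations only. Alternatives were another filter or none, scaling by DESeq2's size factors or library size, DESeq2 1.42.0, only the libraries compared, the replicate block, each library left out, both LGR5- libraries numbered 3 left out, and the thresholds of the study's methods, log2 fold changes beyond 1.5 in either direction at P under 0.05, not adjusted.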

Additional observations from a re-analysis of the deposited data

How the results depend on the processing

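Between untreated and treated LGR5+ cells, 27 of the genes were called, and 19 to 28 were called under the alternatives, the lowest number when each library had to hold 10 reads or more, which removes the genes that start near 0. In LGR5- cells 25 were called, and 18 to 26 under the alternatives. With 1 library left out, 22 to 28 genes were called for LGR5+ cells, 19 to 26 for LGR5- cells, and none in the other 3 comparisons in the fit of the 12 libraries. In every refit in which they were tested, 21 of the 27 and 17 of the 25 kept their call, 17 and 13 when the thresholds of the study's methods are also counted, and no called gene changed direction. These counts include genes that passed the filter only through the treated libraries. They describe genes chosen with earlier results of these libraries known and are not a test of that choice. Between treated populations, where none was called, 1 was called with no filter (11 of 27776 genes), 3 by DESeq2 (82 of 16157), 6 at the thresholds of the study's methods, all higher in LGR5+ (274 genes, 56 higher and 218 lower), and 9 in the added fit of the 6 treated libraries with the replicate block (11, 14 and 18 without replicate numbers 1, 2 and 3, of 379 to 2374 genes in all, from fits with a single residual degree of freedom). At the study's thresholds 1 of the genes passed for the difference between responses (69 of all, 17 higher and 52 lower) and 4 between untreated populations (74 of all, 21 higher and 53 lower); why these counts moved was not tested.

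The replicate block in the fit of all 12 libraries called 26 of the members in LGR5+ and 24 in LGR5- cells (2967 and 2891 of all 16157 genes) and none in the other comparisons. Untreated and treated libraries of a population share only a number: correlations of -0.092, -0.192 and 0.020 were found for LGR5+ cells, 0.072, 0.322 and 0.455 for LGR5- cells, and 0.554, -0.118 and 0.259 between untreated populations. Over all genes, the number called in LGR5+ cells fell from 2590 to 1373 without treated replicate 3, 1452 without treated replicate 2 and 1586 without untreated replicate 3, and was 4448 without both LGR5- libraries numbered 3, 4045 with only the libraries compared and 1168 at the study's thresholds. In LGR5- cells it fell from 2489 to 1562, 1645 and 1649 without untreated replicates 1 and 2 and treated replicate 2, and was 1282 with only the libraries compared and 1131 at the study's thresholds. With library size only, the median of all genes in LGR5+ cells was -0.103 and that of the members 1.83. Depth limits Tgm3, Dsc3, Stfa2 and the untreated levels of Stfa3, Dsg3 and Cnfn, which rest on a few reads.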
